A study of Mus musculus with 60 samples.

Results

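Lysosome and autophagy genes were followed in 3 tissues of ageing mice, the heart, a hind limb muscle (gastrocnemius) and the neocortex. The list held 46 genes, and members were all probe sets whose symbol in the probe-to-gene table was one of these. Of the 46 genes, 43 had at least 1 probe set of their own, with 107 of the 45101 probe sets of the array and 43 of 18193 genes with a single symbol. Cd63 and Optn had no probe set in this table, and Bnip3l, a mitophagy receptor, was measured only by 3 probe sets that also carry the symbol of a pseudogene, so these 3 genes were not analysed here. All 43 measured members passed the filter on dim signals in each of the 3 tissues.

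The mice were males of the F1 cross of C57BL/6 and C3H/He (B6C3F1), in 4 groups with 5 arrays each per tissue, labelled as biological replicates. Young controls (5 months of age) and old controls (30 months) ate the control diet. The old CR group (30 months) had caloric restriction, which the labels put at 40%, from 14 months of age, and the old resveratrol group (30 months) ate the control diet with 4.9 mg of resveratrol per kg and day from 14 months. The weekly calories in the study's methods come to a smaller restriction than the labels state, so its size is uncertain. Both diets were compared with the old controls, and age was the comparison of old with young controls, so the 3 comparisons of a tissue share the old control arrays and their values are set side by side only. There was no young group on either diet. The tissues are whole pieces with several cell types, and fewer cells of a type and less RNA per cell cannot be told apart.

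Lysosomes are acidic compartments in which proteases, glycosidases and lipases break down material from endocytosis and from autophagy. Autophagy begins with the Ulk kinases and Becn1, builds a membrane on which the Atg5-Atg12 conjugate and Atg3 attach ATG8 proteins (the Map1lc3 and Gabarap families) to lipid, and uses receptors such as Sqstm1 and Bnip3 to pick cargo. Tfeb is a transcription factor that binds CACGTG-type sites near many lysosomal genes, and long-lived cells such as cardiomyocytes, muscle fibres and neurons depend on this clearance.

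The promoters of the members were searched for such sites, since the same genes are compared below across diets and tissues. RefSeq promoter windows of build GRCm38.p6, from 250 bases before to 50 after the start, were found for 39 of the 46 listed genes. The motif CACGTG, which reads the same on both strands, occurred in 12 of these 39 genes (30.8%) and in 8.09% of all 27025 genes with a window. Its longer form TCACGTGA, which contains it, occurred in 5 members (12.8%) and in 1.12% of all genes. GTAAACA, a FOXO-type motif, occurred on either strand in 0 of the 39 members and in 4.05% of all genes. These shares are a description of letters and not of binding. Of the 13 members that changed in the heart under CR, described below, 11 had a window and 5 of these held CACGTG. The stretch from 150 bases before to 20 after the start is shown for those 5, because they are among the heart genes whose levels fell on the diet. Capitals mark CACGTG or TCACGTGA. The stretches are chr2:164833623-164833792 on the plus strand for Ctsa, chr7:142387808-142387977 on the minus strand for Ctsd, chr11:119267813-119267982 on the plus strand for Gaa, chr8:13159011-13159180 on the plus strand for Lamp1 and chr7:138909487-138909656 on the minus strand for Bnip3.
Ctsa: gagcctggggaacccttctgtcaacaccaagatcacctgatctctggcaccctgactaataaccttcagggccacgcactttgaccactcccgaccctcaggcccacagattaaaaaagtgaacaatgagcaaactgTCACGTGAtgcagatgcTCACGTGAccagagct
Ctsd: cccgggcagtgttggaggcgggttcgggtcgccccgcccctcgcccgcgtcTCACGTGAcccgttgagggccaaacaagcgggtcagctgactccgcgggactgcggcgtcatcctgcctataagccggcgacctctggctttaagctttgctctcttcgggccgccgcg
Gaa: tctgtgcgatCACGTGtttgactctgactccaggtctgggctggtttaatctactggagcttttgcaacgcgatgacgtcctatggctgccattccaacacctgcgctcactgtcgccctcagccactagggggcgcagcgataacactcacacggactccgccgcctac
Lamp1: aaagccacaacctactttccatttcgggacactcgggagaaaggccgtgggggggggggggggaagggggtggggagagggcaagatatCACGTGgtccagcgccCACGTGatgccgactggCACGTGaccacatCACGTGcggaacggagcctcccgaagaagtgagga
Bnip3: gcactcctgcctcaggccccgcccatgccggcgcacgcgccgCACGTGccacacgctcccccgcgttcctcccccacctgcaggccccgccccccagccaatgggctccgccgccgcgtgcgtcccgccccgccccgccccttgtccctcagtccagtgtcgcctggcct
Lamp1 held 4 copies of CACGTG in this stretch and Ctsa held 2, both in the longer form. Another promoter window of Ctsa, not shown, held none of the motifs. Ctsd held 1 copy in the longer form, and Gaa and Bnip3 held 1 copy of the short form each.

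Signals are linear values that the authors scaled to a trimmed mean of 500 on every array, and n = 5 arrays throughout. Each member is represented by the probe set with the highest mean log2 signal over all 60 arrays, and the level of a probe set is compared only with the same probe set. A member is called changed where its adjusted p from limma, over all genes tested in the tissue and comparison, is under 0.05. The 5 values of a group are listed from lowest to highest.

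Defining markers of each labelled tissue were present. The summed signal of 6 neuronal markers was 64776 to 80017 in the neocortex arrays and at most 924 in the other tissues. That of 6 cardiomyocyte markers was 260043 to 438317 in young hearts, and that of 6 skeletal fibre markers 217395 to 383950 in young muscle. These 2 lists are not exclusive, since the cardiomyocyte sum reached 65568 in muscle and the skeletal fibre sum 80224 in the heart. Control probe sets differed between groups in part. The 3′ minus 5′ log2 signal of beta-actin in the heart was 1.26 to 1.66 in the old controls and 0.61 to 0.95 in the other 3 groups. Spiked-in poly-A controls in muscle had a mean log2 signal of 9.16 to 10.6 in the arrays of both diets and 6.40 to 8.10 in both control groups. The 3′ minus 5′ value of Gapdh in muscle was -0.22 to 3.23 in the old controls (3.23 in replicate 1) and -0.30 to -0.23 on both diets. In the heart it was -0.08 to 0.25 in the old controls and -0.28 to -0.14 in the other 3 groups. In the neocortex the beta-actin value was 0.66 to 0.77 under CR, 0.76 to 1.01 under resveratrol and 0.45 to 0.60 in old controls. Poly-A controls there were at 9.46 to 10.04 under resveratrol, 8.48 to 9.58 under CR and 8.49 to 9.25 in old controls. What made these controls differ and the diets cannot be told apart in any of the 3 tissues. In the heart the same holds for age, since these values differed between old and young controls too. In the neocortex it also holds for CR against resveratrol, where the mean difference was -0.18 for beta-actin and -0.67 for poly-A. Heart young control replicate 1 stood apart from its group, with the lowest mean correlation with the other arrays (0.874, against 0.886 to 0.899) and a summed signal of 18 macrophage markers of 36529, against 19532 to 21154. Without it 10 heart members were called with age, 9 of them among the 11 called with all arrays. The part of these values in the results was not tested.

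**Figure D1:**
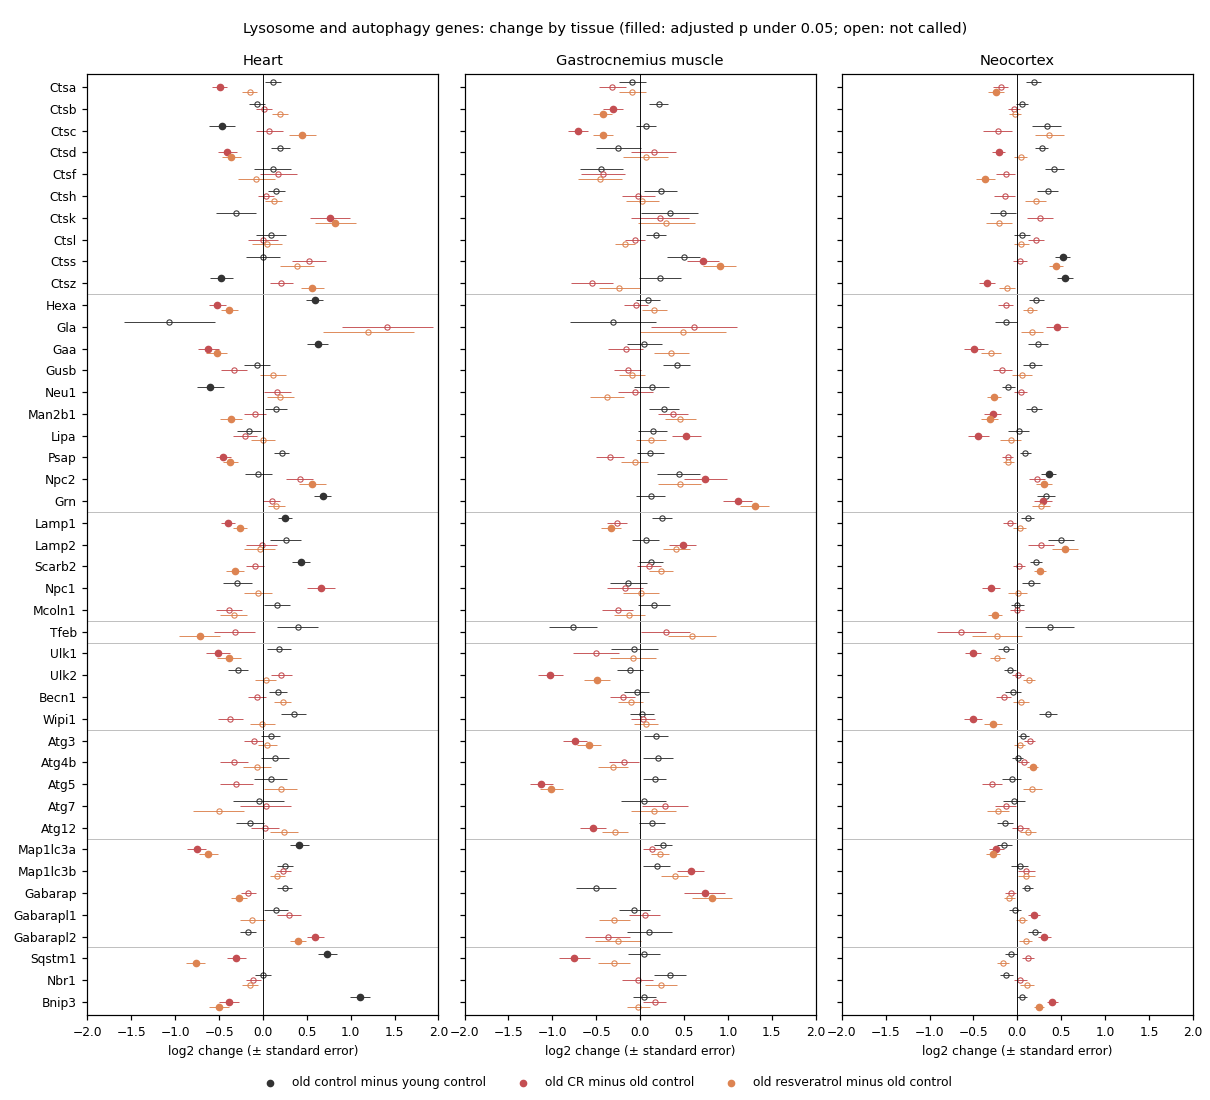
Log2 change of each of the 43 members (vertical axis, grouped by role with grey lines) in heart, muscle and neocortex for age (black), CR (red) and resveratrol (orange), with standard errors, 5 arrays per group. Filled points are called. In muscle 0 of 43 members are filled for age, while Bnip3 in the heart reaches 1.11 for age.

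In the heart, 8 of 43 members rose with age (18.6%) and 3 fell (6.98%), while of all 13285 genes tested 7.05% rose and 3.79% fell. The median log2 change was 0.14 over the members and 0.03 over all genes. Mitophagy and cargo receptors, a glycogen-cleaving enzyme and progranulin were among the rises. The rises were Bnip3 (1.11), Sqstm1 (0.73), Grn (0.68), Gaa (0.62), Hexa (0.59), Scarb2 (0.44), Map1lc3a (0.41) and Lamp1 (0.25), on the log2 scale. The falls were Neu1 (-0.60), Ctsz (-0.48) and Ctsc (-0.47). Some calls were lost when any one of certain arrays was left out, which holds for Ctsc (7 of 10 arrays, all but young control replicates 2 and 3 and old control replicate 4, adjusted p up to 0.126), Lamp1 (6 of 10 arrays, all but young control replicates 3, 4 and 5 and old control replicate 3, adjusted p up to 0.109) and Ctsz (young control replicate 2 or old control replicate 1, adjusted p up to 0.0603). Without the eBayes trend, with only the groups compared and with the methods' t-test after adjustment, Ctsc was not called. By role, 2 of 3 receptors, 3 of 10 glycosidases and soluble cofactors (1 fell), 2 of 5 membrane proteins and 1 of 5 ATG8 proteins rose. Among 10 cathepsins and other proteases 0 rose and 2 fell, and 0 of 9 members of the initiation and conjugation machinery were called. The other 32 members ranged from -1.07 (Gla) to 0.40 (Tfeb).

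Under CR, 3 heart members rose (6.98%) and 10 fell (23.3%), while 7.94% of all genes rose and 14.1% fell. Under resveratrol 5 rose (11.6%) and 13 fell (30.2%), while 7.08% of all genes rose and 10.5% fell. The share of members that rose was near that of all genes under CR. The median log2 change of the members was -0.09 for CR and -0.04 for resveratrol. With quantile normalization in place of scaling, 6 members rose and 9 fell under CR, and 7 rose and 10 fell under resveratrol. The falls under CR were Map1lc3a (-0.75), Gaa (-0.62), Hexa (-0.52), Ulk1 (-0.51), Ctsa (-0.49), Psap (-0.45), Ctsd (-0.41), Lamp1 (-0.40), Bnip3 (-0.39) and Sqstm1 (-0.30). The rises under CR were Ctsk (0.76), Npc1 (0.66) and Gabarapl2 (0.60). The falls under resveratrol were Sqstm1 (-0.77), Tfeb (-0.72), Map1lc3a (-0.62), Gaa (-0.53), Bnip3 (-0.50), Ulk1 (-0.39), Hexa (-0.38), Psap (-0.37), Man2b1 (-0.36), Ctsd (-0.36), Scarb2 (-0.32), Gabarap (-0.27) and Lamp1 (-0.26). The rises under resveratrol were Ctsk (0.83), Npc2 (0.56), Ctsz (0.56), Ctsc (0.45) and Gabarapl2 (0.40). The count under resveratrol was 10 without old resveratrol replicate 4. Leaving out any one of the arrays named ended these calls under resveratrol: Ctsc (8 of 10 arrays, all but old control replicate 4 and old resveratrol replicate 3, adjusted p up to 0.11), Ctsd (old control replicates 1 and 2 or old resveratrol replicate 4, adjusted p up to 0.0617), Lamp1 (old control replicate 1 or old resveratrol replicates 2 and 4, adjusted p up to 0.0636), Man2b1 (8 of 10 arrays, all but old control replicate 2 and old resveratrol replicate 5, adjusted p up to 0.117), Scarb2 (old control replicates 4 and 5 or old resveratrol replicates 1 and 4, adjusted p up to 0.0856) and Ulk1 (7 of 10 arrays, all but old control replicates 2 and 4 and old resveratrol replicate 3, adjusted p up to 0.146). A second probe set of Psap, the precursor of saposins, went the other way, with a called rise of 0.40 under CR.

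Bnip3, a mitochondrial receptor that recruits autophagosomes, had the largest called change with age among the heart members. Bnip3 signals were 5851, 7810.4, 8023, 8806 and 10004 in the young controls and 15493, 15632, 16287, 17582 and 21480 in the old controls. Under CR Bnip3 signals were 12084, 12792, 13267, 13407 and 14160.2, and under resveratrol 11295, 11320.5, 11791, 12695 and 13814. Every old control array was above every young one, and every array of both diets lay between the young and the old controls. The rise with age was 2.15-fold (log2 change 1.11, SE 0.11, limma adjusted p = 1.42e-06). Bnip3 fell by 0.39 on the log2 scale under CR (SE 0.11, limma adjusted p = 0.0146) and by 0.50 under resveratrol (SE 0.11, limma adjusted p = 0.00275). Without old control replicate 4, whose beta-actin value was 1.66, the adjusted p for CR was 0.0548.

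Sqstm1 (p62) binds ubiquitin-tagged cargo and ATG8 proteins. Sqstm1 signals were 6543, 9260.04, 9468, 9719 and 10532 in the young controls and 12547, 14321, 14767, 16360.4 and 17049.9 in the old controls. Under CR Sqstm1 signals were 10701, 11886, 12267, 12578 and 13212, and under resveratrol 8158, 8439.7, 8496, 9306 and 9570.4. All old control arrays were above all young controls, the resveratrol arrays were all below the old controls and within the range of the young ones, and the CR arrays overlapped the old controls. With age Sqstm1 rose (log2 change 0.73, SE 0.11, limma adjusted p = 8.72e-05), and it fell under resveratrol (log2 change -0.77, SE 0.11, limma adjusted p = 1.92e-05). CR was 0.46 above resveratrol on the log2 scale (SE 0.11, limma adjusted p = 0.013). The smaller fall under CR, at -0.30, lost its call without any one of 8 of the 10 arrays compared (all but old control replicate 3 and old CR replicate 4), with an adjusted p of up to 0.119. A second, much dimmer probe set of Sqstm1 gave -0.11 for age, 0.85 for CR and 0.50 for resveratrol, none of them called.

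**Figure D2:**
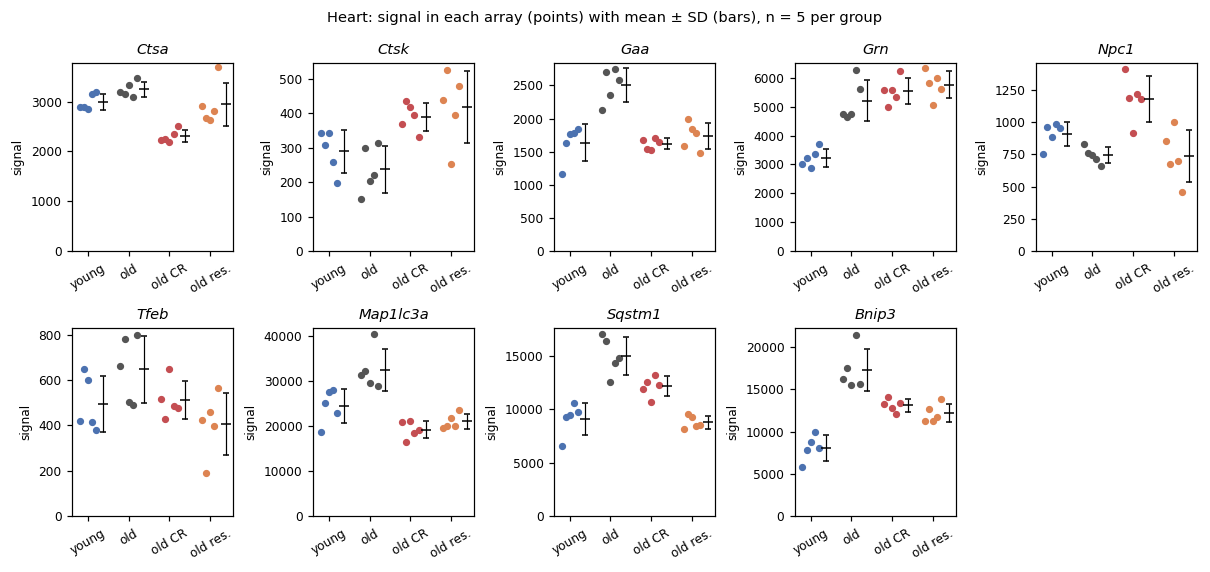
Linear signal of the 9 heart members that are among the 4 largest called changes of any one comparison, 1 panel per gene; each point is 1 array in its group, and bars are mean ± SD, n = 5. Old control arrays of Bnip3 lie from 15493 to 21480, above all young controls, which end at 10004.

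Among the soluble lysosomal proteins, Gaa cleaves glycogen and is the enzyme lost in Pompe disease. Gaa signals were 1168, 1635, 1760.3, 1786 and 1839 in the young controls and 2131, 2350.1, 2579, 2700.02 and 2744 in the old controls. Under CR Gaa signals were 1529, 1545, 1642, 1673 and 1712, and under resveratrol 1484, 1592, 1777, 1838 and 1988. Old control hearts were all above the arrays of the other 3 groups, and the diet arrays overlapped the young controls. Gaa rose with age (log2 change 0.62, SE 0.12, limma adjusted p = 0.000965), and its second probe set rose too. It fell under CR (log2 change -0.62, SE 0.12, limma adjusted p = 0.000354) and under resveratrol (log2 change -0.53, SE 0.12, limma adjusted p = 0.00217), also on both probe sets. Hexa, a subunit of beta-hexosaminidase A, had a mean of 3481 ± 237 (SD) in old controls, against 2319 ± 202 in young ones. Its mean was 2432 ± 191 in the CR arrays and 2679.6 ± 326 in the resveratrol arrays.

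Grn encodes progranulin, a secreted and lysosomal glycoprotein. Grn signals were 2873, 3022, 3219, 3359 and 3694 in the young controls and 4645, 4742, 4749.7, 5616 and 6258 in the old controls. Under CR Grn signals were 4993, 5330.1, 5586, 5595 and 6239, and under resveratrol 5061, 5602, 5821, 5990.5 and 6338. Each old array of any diet was above each young control, and the 3 old groups overlapped. The age change was 0.68 (SE 0.10, limma adjusted p = 6.11e-05), with both further probe sets called in the same direction. The diet changes were 0.10 and 0.15 and were not called.

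Map1lc3a is an ATG8 protein carried on the autophagosome membrane. Map1lc3a signals were 18673, 22937, 25129, 27629.8 and 27895 in the young controls and 28903, 29473, 31304, 32203 and 40508 in the old controls. Under CR Map1lc3a signals were 16522, 18535, 19074, 20833 and 21023, and under resveratrol 19585, 20006, 20061, 21779 and 23594. The old control arrays were the highest of the 4 groups, 1 of them well above the other 4, and all arrays of both diets were below them. Map1lc3a fell under CR (log2 change -0.75, SE 0.11, limma adjusted p = 1.83e-05) and under resveratrol (log2 change -0.62, SE 0.11, limma adjusted p = 0.000253), with the second probe set called in both. Its rise with age, 0.41, had an adjusted p of 0.0575 without old control replicate 4.

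Proteases were called in both directions in the heart. Ctsk is a collagen-degrading cysteine protease. Ctsk signals were 197, 259.7, 308, 342 and 343 in the young controls and 151, 203, 221, 298 and 313 in the old controls. Under CR Ctsk signals were 332, 369.7, 395, 418 and 434, and under resveratrol 254, 396, 437, 479 and 527. Every CR array exceeded every old control, while 1 resveratrol array lay among them. Ctsk rose under CR (log2 change 0.76, SE 0.23, limma adjusted p = 0.018) and under resveratrol (log2 change 0.83, SE 0.23, limma adjusted p = 0.0123). The CR call was lost without old control replicate 1 (adjusted p 0.0632). Ctsa is a carboxypeptidase that also protects beta-galactosidase and Neu1. Ctsa signals were 2855, 2887, 2890.02, 3144 and 3199 in the young controls and 3100.5, 3152, 3188, 3326 and 3478 in the old controls. Under CR Ctsa signals were 2190.3, 2237, 2254, 2343 and 2509, and under resveratrol 2638, 2680.4, 2808, 2903 and 3699. The CR arrays were below all others. Ctsa fell under CR (log2 change -0.49, SE 0.09, limma adjusted p = 0.000236). It was -0.34 in CR minus resveratrol (limma adjusted p = 0.0276), a call that was lost without any one of 6 of the 10 arrays (old CR replicates 1 to 4, old resveratrol replicates 1 and 5), with an adjusted p of up to 0.0612. A dim second probe set of Ctsa gave 0.36 for CR and was not called.

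Npc1, a membrane protein that exports cholesterol from the lysosome, was called under CR and between the diets. Npc1 signals were 754, 885, 956, 967 and 989.8 in the young controls and 661, 716, 743, 765 and 830.00 in the old controls. Under CR Npc1 signals were 914, 1179, 1192, 1217 and 1413, and under resveratrol 459, 679.6, 696, 853 and 1004. The CR arrays were all above the old controls, and the resveratrol arrays spread on both sides of them. Npc1 rose under CR (log2 change 0.66, SE 0.16, limma adjusted p = 0.00392), and CR exceeded resveratrol by 0.71 (SE 0.16, limma adjusted p = 0.0105). Tfeb, the transcription factor of lysosomal genes, had a wide spread. Tfeb signals were 379, 413, 421, 601 and 649 in the young controls and 490.1, 503, 663, 781 and 798 in the old controls. Under CR Tfeb signals were 429.8, 478, 484, 517 and 647, and under resveratrol 192, 399, 421, 459 and 565. The resveratrol arrays lay mostly below the old controls, with 1 overlapping them. Tfeb fell under resveratrol (log2 change -0.72, SE 0.23, limma adjusted p = 0.0318), but the call was lost without any one of 5 arrays (old control replicates 1, 2 and 5, old resveratrol replicates 2 and 4), with an adjusted p of up to 0.117 and a log2 change of -0.47 without old resveratrol replicate 2. Between CR and resveratrol, 2 members were higher under CR (Npc1 and Sqstm1) and 1 lower (Ctsa), beside 1.43% of all genes higher and 2.57% lower, and the other 40 members ranged from -0.51 (Atg5) to 0.54 (Atg7).

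Other calls in the heart rested on 1 of several probe sets. With age the second probe set of Neu1, a sialidase, gave 1.45 and that of Ctsc, an activator of granule proteases, -0.31, neither called. For Ulk1, the kinase that starts autophagy, the second probe set gave 0.53 under CR and 0.44 under resveratrol, neither called. That of Gabarapl2 gave -0.26 under CR and 0.13 under resveratrol, neither called. For Npc2, 2 other probe sets gave -0.19 and 0.18 under resveratrol, neither called. Markers of other cells also differed in these hearts. Of 17 tested macrophage markers 1 rose with age, 7 under CR and 7 under resveratrol, and the summed signal of 18 was 19532 to 36529 in the young control arrays, 15398 to 22052 in the old control arrays, 23917 to 29615 in the CR arrays and 21459 to 32825 in the resveratrol arrays. Of 6 fibroblast markers 3 fell with age and 2 and 3 rose on the diets, with sums of 16917 to 35937 in the old control arrays, 41844 to 48750.2 in the CR arrays and 35589.6 to 46979 in the resveratrol arrays. All 5 atrial markers rose under resveratrol (summed signal 166405 to 209208, against 72637 to 158137 in old controls) and 3 of 5 under CR. Of 4 tested adipocyte markers 2 rose under CR and 1 under resveratrol. Adipocyte sums were 26362 to 36201 in old controls, 42972 to 51857 under CR and 38817 to 53804 under resveratrol. Red blood cell sums were 1858 to 3153, 5535 to 22607 and 3369 to 7982 in the same order. Of 6 endothelial markers 1 rose and 2 fell under CR, and 2 rose and 2 fell under resveratrol. In the macrophage list Trem2 was below the filter, and no marker of it was at 0. Their part in the results was not tested.

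In gastrocnemius muscle, 0 of 43 members were called with age by limma, while of 12831 genes 0.429% were called (0.257% rose and 0.171% fell). At an unadjusted p under 0.05, 6 members passed, beside 13.9% of all genes. With the methods' t-test, 1 member passed at p of 0.01 or less and 0 after Benjamini-Hochberg adjustment. The changes with age ran from -0.76 (Tfeb) to 0.50 (Ctss). Without young control replicate 4, 1 member was called.

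More members were called on the diets. Under CR 7 members rose and 7 fell (16.3% each), while 17.5% of all genes rose and 13.6% fell. Under resveratrol 3 rose (6.98%) and 6 fell (14%), while 9.42% of all genes rose and 9.26% fell. These shares are near those of all genes. With quantile normalization 6 members rose and 6 fell under resveratrol. The rises under CR were Grn (1.11), Npc2 (0.74), Gabarap (0.73), Ctss (0.72), Map1lc3b (0.57), Lipa (0.52) and Lamp2 (0.48). The falls under CR were Atg5 (-1.12), Ulk2 (-1.02), Sqstm1 (-0.75), Atg3 (-0.74), Ctsc (-0.71), Atg12 (-0.54) and Ctsb (-0.31). The rises under resveratrol were Grn (1.30), Ctss (0.91) and Gabarap (0.82). The falls under resveratrol were Atg5 (-1.01), Atg3 (-0.59), Ulk2 (-0.49), Ctsb (-0.43), Ctsc (-0.42) and Lamp1 (-0.33). By role, 3 of 5 members of the conjugation machinery fell under CR and 2 of 5 under resveratrol, with 0 rising. Of 10 glycosidases, lipase and soluble cofactors, 3 rose under CR with 0 falling. Of 10 cathepsins and other proteases, 1 rose and 2 fell under CR, and the same counts held under resveratrol. Without old control replicate 1 and young control replicate 4, which had the highest 3′ minus 5′ values of beta-actin in their groups, 18 members were called under CR and 16 under resveratrol, including the 14 and 9 called with all arrays. Leaving out any one of the arrays named ended the CR calls of Ctsb (7 of 10 arrays, all but old control replicate 1 and old CR replicates 1 and 2, adjusted p up to 0.117), Lamp2 (old control replicates 3 and 5 or old CR replicate 2, adjusted p up to 0.0643), Lipa (old control replicate 4 or old CR replicate 2, adjusted p up to 0.0653) and Npc2 (old control replicates 2 and 5, adjusted p up to 0.0624) and the resveratrol call of Lamp1 (8 of 10 arrays, all but old control replicate 4 and old resveratrol replicate 3, adjusted p up to 0.109). The CR change of Npc2 was 0.42 without old CR replicate 2. That array had the lowest mean correlation with the others of its group (0.906, against 0.920 to 0.928).

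Atg5, which joins Atg12 to form the conjugate that lipidates ATG8 proteins, had the largest called fall in muscle. Atg5 signals were 846, 868, 883, 1052 and 1059 in the young controls and 928, 953, 1082, 1135 and 1174 in the old controls. Under CR Atg5 signals were 389, 433, 466, 559 and 589, and under resveratrol 489.8, 489.8, 492, 525 and 618. Both diet groups were below all control arrays, with no overlap. Atg5 fell 2.18-fold under CR (log2 change -1.12, SE 0.13, limma adjusted p = 3.91e-06) and 2.02-fold under resveratrol (log2 change -1.01, SE 0.13, limma adjusted p = 2.76e-05). Its 2 other probe sets ranged from -0.88 to -0.50 under CR and from -1.40 to -0.41 under resveratrol, and 1 of the 2 was called in each. Atg3, the E2-like enzyme of the same reaction, had a mean signal of 3064 ± 137 (SD) in the old control arrays, 1855 ± 333 in the CR arrays and 2062 ± 349.9 in the resveratrol arrays.

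Ulk2 is a kinase that starts autophagy alongside Ulk1. Ulk2 signals were 3276, 3302, 3497, 3683 and 4120.3 in the young controls and 3119, 3132, 3359, 3402 and 3484 in the old controls. Under CR Ulk2 signals were 957, 1783, 1844, 1859 and 1925, and under resveratrol 2169.8, 2264, 2382, 2405 and 2535. All diet arrays were below all control arrays, and the CR arrays were below the resveratrol ones, 1 of them far below. Ulk2 fell under CR (log2 change -1.02, SE 0.15, limma adjusted p = 3.98e-05) and under resveratrol (log2 change -0.49, SE 0.15, limma adjusted p = 0.0229). The resveratrol call was lost without old control replicate 4 or old resveratrol replicate 5 (adjusted p up to 0.0538), and the 3 other probe sets of Ulk2 ranged from -1.16 to 0.70 under CR, 1 of them called as falling. CR minus resveratrol was -0.53 and was not called (limma adjusted p = 0.0948).

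Sqstm1 was called under CR in muscle. Sqstm1 signals were 6739, 12285, 12562, 14126 and 15699 in the young controls and 8661, 12075, 13259, 13881 and 14052 in the old controls. Under CR Sqstm1 signals were 5999, 6645, 7686, 7863 and 8369.95, and under resveratrol 8638, 9735, 9742, 10119 and 11608. The CR arrays were below all old controls, and the young controls spread over a wide range. Sqstm1 fell under CR (log2 change -0.75, SE 0.18, limma adjusted p = 0.00376) and had a log2 change of -0.30 under resveratrol, which was not called. Its dim second probe set gave 0.15 under CR and was not called.

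Gabarap, an ATG8 protein, was higher on both diets. Gabarap signals were 3820.2, 5586, 6416, 6504 and 6945 in the young controls and 1864, 4331, 4464, 5231 and 5779 in the old controls. Under CR Gabarap signals were 5066, 6399.6, 6407, 7401 and 9044, and under resveratrol 6749, 6800.2, 6867, 7288 and 8047. Resveratrol arrays were all above the old controls, of which 1 was far below the rest, and the CR arrays overlapped the old controls. Gabarap rose under resveratrol (log2 change 0.82, SE 0.23, limma adjusted p = 0.0159) and under CR (log2 change 0.73, SE 0.23, limma adjusted p = 0.0198). Without old control replicate 1, the low array, the log2 changes were 0.54 and 0.45, still called. With the methods' t-test after adjustment neither was called, and with only the groups compared the CR change was not.

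**Figure D3:**
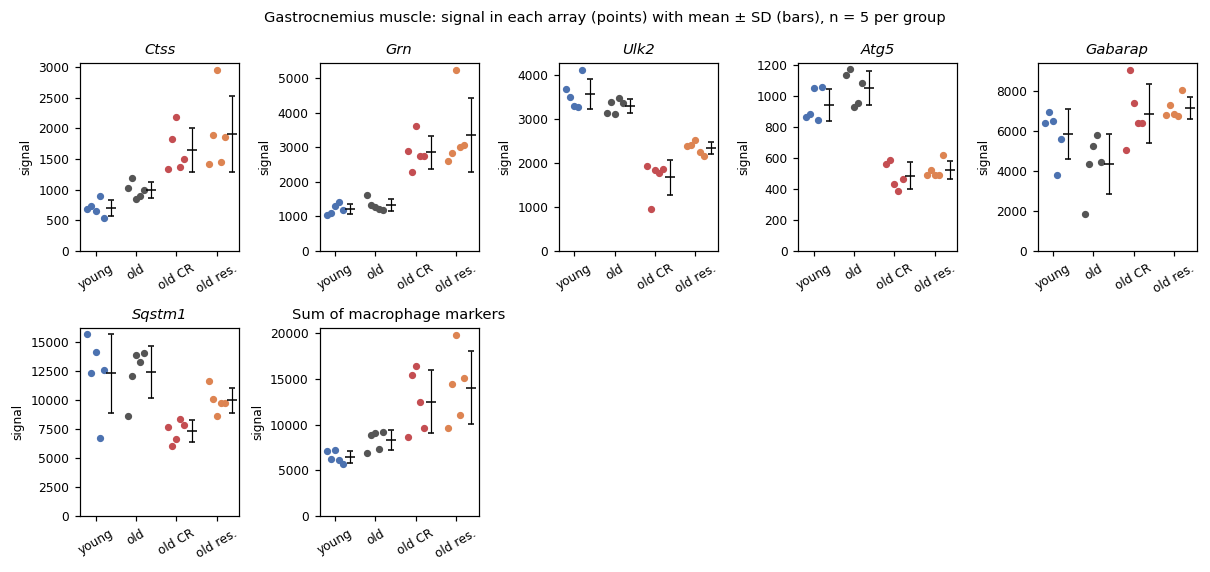
Linear signal of the 6 muscle members that are among the 4 largest called changes of any one comparison and, in the last panel, the summed signal of 18 macrophage markers; points are arrays, bars mean ± SD, n = 5 per group. Grn runs from 1054 to 1616 in the control arrays and from 2284 to 5232 in the diet arrays.

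Grn and Ctss rose on both diets. Grn signals were 1054, 1096, 1179, 1311 and 1429 in the young controls and 1177, 1219.6, 1262, 1317 and 1616 in the old controls. Under CR Grn signals were 2284, 2739, 2759, 2906 and 3614, and under resveratrol 2592, 2836, 3009, 3059 and 5232. Every diet array was above every control array, and 1 resveratrol array was far above the rest. Grn rose 2.16-fold under CR (log2 change 1.11, SE 0.16, limma adjusted p = 5.16e-05) and 2.47-fold under resveratrol (log2 change 1.30, SE 0.16, limma adjusted p = 1.95e-05), and 1 of its 2 other probe sets was called in the same direction in each. Ctss is a cysteine protease of antigen-presenting cells. Ctss signals were 546, 657, 693, 739 and 899 in the young controls and 855, 899, 987, 1024 and 1187 in the old controls. Under CR Ctss signals were 1339.9, 1365, 1506, 1831 and 2188, and under resveratrol 1415, 1454, 1854, 1898 and 2946. The diet arrays were all above the controls. Ctss rose under CR (log2 change 0.72, SE 0.18, limma adjusted p = 0.00628) and under resveratrol (log2 change 0.91, SE 0.18, limma adjusted p = 0.00173). Macrophage markers rose as well, 6 of 14 tested under CR and 5 under resveratrol. Their summed signal, over 18 markers, was 6872 to 9207 in the old control arrays, 8639 to 16375 in the CR arrays and 9605 to 19830.5 in the resveratrol arrays, and Aif1, Cx3cr1, Itgam and Trem2 were below the filter. Of 6 endothelial markers 4 fell on each diet (sums of 3322 to 5047 in the old control arrays, 1654 to 2651 in the CR arrays and 2214 to 2744 in the resveratrol arrays). Of 5 adipocyte markers 1 rose under CR and 0 under resveratrol. Adipocyte sums were 27517 to 42293 in the old control arrays, 27906 to 112694 in the CR arrays and 26144 to 43724 in the resveratrol arrays. Their part was not tested.

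Between the diets 0 of 43 members were called in muscle by limma, with 0.561% of all genes called (0.257% higher and 0.304% lower). At an unadjusted p under 0.05, 5 members passed, beside 13.2% of all genes, and the methods' t-test gave 1 member at p of 0.01 or less and 0 after adjustment. Differences ran from -0.53 (Ulk2) to 0.40 (Lipa). A p above the threshold does not show that the diets acted alike. Among the members called under CR, 1 of the 3 other probe sets of Lamp2, a membrane glycoprotein needed for autophagosome fusion, went against the call and had a called fall of -1.24.

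In the neocortex, 3 members rose with age (6.98%) and 0 fell, while of 13057 genes 1.08% rose and 0.383% fell. All 3 are soluble lysosomal proteins, with 2 of 10 proteases and 1 of 10 glycosidases and cofactors called. The other 40 members ranged from -0.16 (Ctsk) to 0.50 (Lamp2). The median log2 change was 0.09 over the members and 0.02 over all genes.

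Ctsz, a lysosomal carboxypeptidase of the cysteine class, led these rises. Ctsz signals were 1789.7, 1816, 2092, 2101 and 2159 in the young controls and 2599, 2782, 2858, 3108 and 3158 in the old controls. Under CR Ctsz signals were 2146, 2149.6, 2202, 2277 and 2666, and under resveratrol 2166, 2651, 2652, 2955 and 2998. Old controls were all above the young ones, the CR arrays ran from the top of the young range to the bottom of the old one, and the resveratrol arrays overlapped the old controls. Ctsz rose with age (log2 change 0.54, SE 0.09, limma adjusted p = 0.00229), with its 2 other probe sets at 0.51 and 0.59, 1 of them called. It fell under CR (log2 change -0.34, SE 0.09, limma adjusted p = 0.00492) and was not called under resveratrol (log2 change -0.12).

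Ctss rose with age and again with resveratrol. Ctss signals were 2731, 2943, 3035, 3110.2 and 3171 in the young controls and 3810.5, 4166, 4309.9, 4339 and 4828 in the old controls. Under CR Ctss signals were 4042, 4069, 4372, 4475 and 4959, and under resveratrol 4939, 5346, 5820.3, 6099 and 6999. Young controls were lowest, old controls and CR overlapped, and the resveratrol arrays were above all old controls and, but for the highest CR array, above all CR arrays. The age change was 0.52 (SE 0.08, limma adjusted p = 0.00212) and the resveratrol change 0.44 (SE 0.08, limma adjusted p = 0.000409). CR minus resveratrol was -0.41 (limma adjusted p = 0.00452), and the CR change was 0.03 and was not called.

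Npc2 is the soluble carrier that hands cholesterol to Npc1. Npc2 signals were 2586, 2927, 3380.1, 3457 and 3587 in the young controls and 3517, 3931, 4192, 4299.5 and 4358 in the old controls. Under CR Npc2 signals were 4023, 4593, 4894, 4962 and 5322, and under resveratrol 4492, 4809.6, 4993, 5198 and 5612. The lowest old control fell within the young range, and the resveratrol arrays were above all old controls. Npc2 rose with age (log2 change 0.36, SE 0.09, limma adjusted p = 0.0487), a call that was lost without any one of 8 of the 10 arrays (all but young control replicate 1 and old control replicate 1), with an adjusted p of up to 0.148. It rose under resveratrol (log2 change 0.31, SE 0.09, limma adjusted p = 0.0143). Macrophage and microglia markers were also called. With age 9 of 17 tested markers rose, under CR 4 fell and under resveratrol 5 rose, and 8 were lower in CR than in resveratrol. Their summed signal was 11129.5 to 12909 in young control arrays and 14684 to 18158 in old control arrays. It was 12979.6 to 15408 in the CR arrays and 17589 to 23887 in the resveratrol arrays, with Cd163 below the filter and no marker at 0. Their part in the changes of Ctsz, Ctss and Npc2 was not tested.

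**Figure D4:**
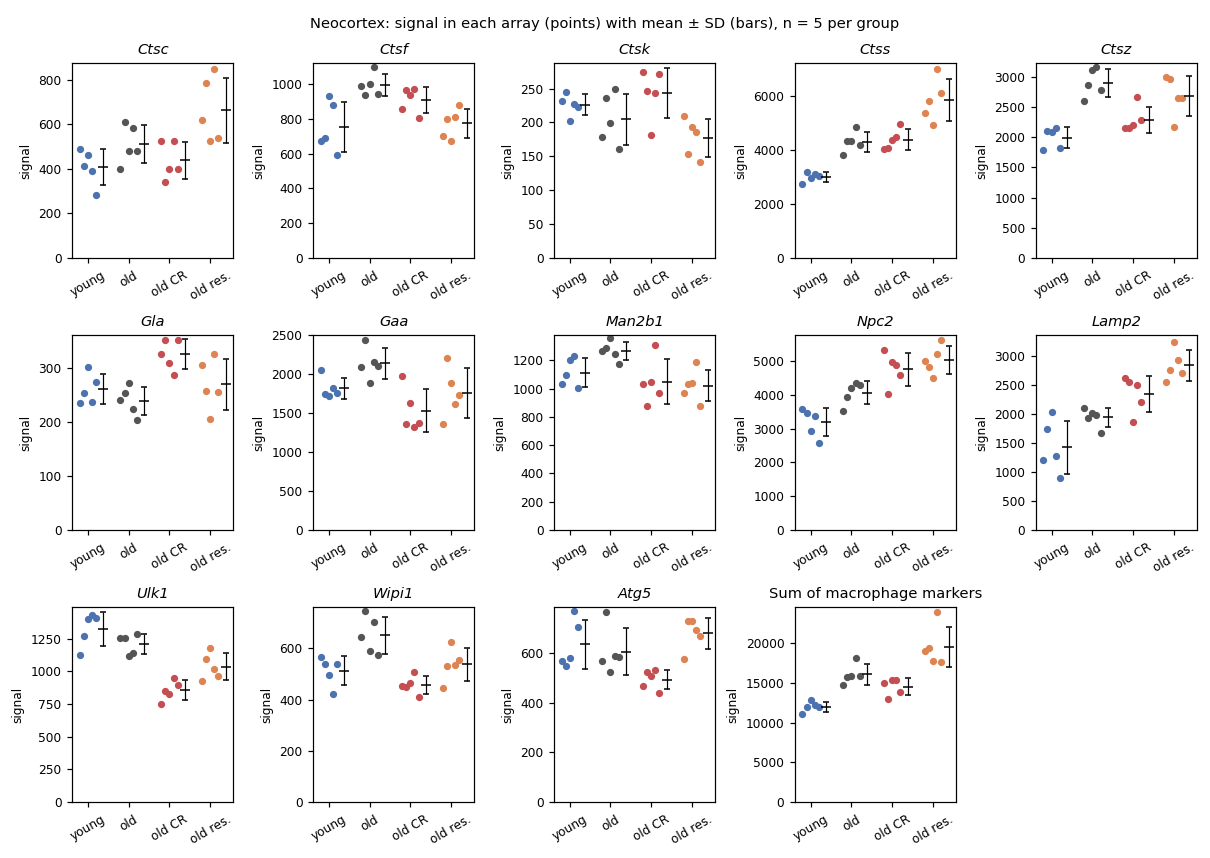
Linear signal of the 13 neocortex members that are among the 4 largest called changes of any one comparison and, in the last panel, the summed signal of 18 macrophage and microglia markers; points are arrays, bars mean ± SD, n = 5 per group. Ctss lies from 2731 to 3171 in young controls and from 4939 to 6999 under resveratrol.

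More neocortex members were called on the diets than with age. Under CR 5 rose (11.6%) and 9 fell (20.9%), while 13.1% of all genes rose and 17.5% fell. Under resveratrol 6 rose (14%) and 7 fell (16.3%), while 12.3% of all genes rose and 13.9% fell. These shares are near those of all genes. With quantile normalization 3 rose and 8 fell under CR. The falls under CR were Wipi1 (-0.51), Ulk1 (-0.50), Gaa (-0.50), Lipa (-0.45), Ctsz (-0.34), Npc1 (-0.30), Man2b1 (-0.28), Map1lc3a (-0.24) and Ctsd (-0.21). The rises under CR were Gla (0.45), Bnip3 (0.40), Gabarapl2 (0.31), Grn (0.29) and Gabarapl1 (0.19). The falls under resveratrol were Ctsf (-0.37), Man2b1 (-0.31), Wipi1 (-0.28), Map1lc3a (-0.28), Neu1 (-0.27), Mcoln1 (-0.25) and Ctsa (-0.25). The rises under resveratrol were Lamp2 (0.55), Ctss (0.44), Npc2 (0.31), Scarb2 (0.26), Bnip3 (0.25) and Atg4b (0.17). Another probe set of Grn had a called fall of -0.33 under CR. Leaving out any one of the arrays named ended the CR calls of Ctsd (7 of 10 arrays, all but old control replicate 5 and old CR replicates 3 and 4, adjusted p up to 0.0937), Gabarapl1 (6 of 10 arrays, all but old control replicates 1 and 3 and old CR replicates 2 and 5, adjusted p up to 0.0997), Grn (6 of 10 arrays, all but old control replicates 1 and 3 and old CR replicates 2 and 4, adjusted p up to 0.0947), Man2b1 (old control replicates 2 and 3 or old CR replicates 2 and 5, adjusted p up to 0.0958), Map1lc3a (6 of 10 arrays, all but old control replicates 2 and 4 and old CR replicates 1 and 4, adjusted p up to 0.0774) and Npc1 (old control replicates 3, 4 and 5 or old CR replicates 1 and 2, adjusted p up to 0.11). For resveratrol this holds for Atg4b (8 of 10 arrays, all but old control replicate 4 and old resveratrol replicate 4, adjusted p up to 0.111), Ctsa (6 of 10 arrays, all but old control replicates 1 and 3 and old resveratrol replicates 2 and 3, adjusted p up to 0.112), Mcoln1 (old control replicate 4 or old resveratrol replicates 3 and 4, adjusted p up to 0.0642) and Wipi1 (7 of 10 arrays, all but old control replicates 3 and 5 and old resveratrol replicate 3, adjusted p up to 0.149).

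Of 4 members of the initiation machinery, 2 fell under CR, Ulk1 and Wipi1. Ulk1 signals were 1125, 1266, 1396, 1409.8 and 1429.97 in the young controls and 1114, 1137, 1254, 1256 and 1286 in the old controls. Under CR Ulk1 signals were 747, 828, 849.9, 894 and 952, and under resveratrol 924, 964, 1015, 1095 and 1181. The CR arrays were below all controls, and the resveratrol arrays overlapped both the CR arrays and the old controls. Ulk1 fell under CR (log2 change -0.50, SE 0.09, limma adjusted p = 0.000121), with its second probe set called too. Wipi1 binds the phosphoinositide made at the growing membrane. Wipi1 signals were 423, 495, 538, 540.1 and 567 in the young controls and 573, 591, 644, 704 and 744 in the old controls. Under CR Wipi1 signals were 412, 450.04, 452, 465 and 509.6, and under resveratrol 444, 530.4, 536, 553 and 624. All CR arrays were below all old controls, and 4 of the 5 were within the range of the young ones. Wipi1 fell under CR (log2 change -0.51, SE 0.10, limma adjusted p = 0.000692), and 2 of its 5 other probe sets were called in the same direction.

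Glycosidases went both ways under CR. Gaa signals were 1723, 1744, 1764, 1819 and 2051 in the young controls and 1893, 2098, 2109, 2155 and 2442 in the old controls. Under CR Gaa signals were 1320.1, 1358, 1369, 1627 and 1971, and under resveratrol 1359, 1615, 1732, 1882 and 2207. Most CR arrays were below all old controls, with 1 inside their range. Gaa fell under CR (log2 change -0.50, SE 0.11, limma adjusted p = 0.00201), on both probe sets. Gla, the alpha-galactosidase lost in Fabry disease, gave low signals. Gla signals were 235, 237, 254, 274 and 302 in the young controls and 204, 223, 241, 253 and 272 in the old controls. Under CR Gla signals were 287, 309, 326, 351 and 352, and under resveratrol 205, 255, 257, 305 and 326. CR arrays were all above the old controls. Gla rose under CR (log2 change 0.45, SE 0.12, limma adjusted p = 0.00827), while its dimmer second probe set gave -0.79 and was not called. Man2b1 is a lysosomal mannosidase. Man2b1 signals were 1002, 1029.8, 1098, 1200.3 and 1234 in the young controls and 1177, 1248, 1264, 1284 and 1355 in the old controls. Under CR Man2b1 signals were 881, 973, 1035, 1045 and 1311, and under resveratrol 880.3, 967, 1033, 1041 and 1186. Both diet groups were mostly below the old controls, with 1 array of each inside their range. Man2b1 fell under resveratrol (log2 change -0.31, SE 0.10, limma adjusted p = 0.0173), a call lost without old resveratrol replicate 5 (adjusted p 0.0578).

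Lamp2 and Ctsf were called under resveratrol. Lamp2 is the lysosomal membrane glycoprotein needed for autophagosome fusion. Lamp2 signals were 896, 1202, 1274, 1746 and 2036 in the young controls and 1669, 1934, 1988, 2028 and 2109.8 in the old controls. Under CR Lamp2 signals were 1874, 2205, 2499, 2553 and 2626, and under resveratrol 2550.4, 2709, 2767, 2939.8 and 3248. Resveratrol arrays were above all controls, and the CR arrays overlapped both. Lamp2 rose under resveratrol (log2 change 0.55, SE 0.15, limma adjusted p = 0.00866), on all 4 of its probe sets. Ctsf is a cysteine protease. Ctsf signals were 593, 674, 690.2, 879 and 929.9 in the young controls and 940.2, 946, 988, 999 and 1096 in the old controls. Under CR Ctsf signals were 804, 856, 936, 968 and 972, and under resveratrol 676, 700.3, 802, 808 and 883. The old controls were the highest group, and the resveratrol arrays were all below them. Ctsf fell under resveratrol (log2 change -0.37, SE 0.11, limma adjusted p = 0.0141). Under the age comparison, where the groups also did not overlap, it was not called (log2 change 0.42, limma adjusted p = 0.0506).

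Compared directly, 3 members were higher and 7 lower under CR than under resveratrol in the neocortex (6.98% and 16.3%, beside 3.66% and 5.62% of all genes). The lower ones were Ctsc (-0.59), Atg5 (-0.46), Ctss (-0.41), Hexa (-0.28), Ulk1 (-0.28), Ctsd (-0.25) and Scarb2 (-0.24). The higher ones were Ctsk (0.46), Neu1 (0.30) and Sqstm1 (0.29). Beta-actin and poly-A controls also differed between the arrays of these diets, as given above, and their part was not tested. The count was 4 without old CR replicate 2, 6 without old CR replicate 5, 5 without old resveratrol replicate 2 and 4 without old resveratrol replicate 4. Leaving out any one of the arrays named ended the calls of Ctsd (7 of 10 arrays, all but old CR replicates 3 and 4 and old resveratrol replicate 5, adjusted p up to 0.12), Hexa (8 of 10 arrays, all but old CR replicates 1 and 3, adjusted p up to 0.11), Neu1 (old resveratrol replicate 4, adjusted p up to 0.052), Scarb2 (old CR replicates 1 and 2 or old resveratrol replicates 1 and 3, adjusted p up to 0.0738) and Ulk1 (7 of 10 arrays, all but old CR replicate 4 and old resveratrol replicates 1 and 5, adjusted p up to 0.12). Atg5 signals were 547, 569, 580.2, 705 and 767 in the young controls and 523, 569, 583, 586 and 765 in the old controls. Under CR Atg5 signals were 437, 468, 505, 523 and 531, and under resveratrol 576, 669, 692, 726 and 729. All resveratrol arrays were above all CR arrays (log2 change -0.46, SE 0.11, limma adjusted p = 0.0123), and neither diet was called against the old controls. Its 2 other probe sets gave 0.06 and 0.27, not called.

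Ctsc signals were 283, 391, 412, 462 and 490.2 in the young controls and 399, 479.96, 482, 584 and 608 in the old controls. Under CR Ctsc signals were 339.7, 399, 401, 525 and 526, and under resveratrol 523, 538, 618, 783 and 846. Ctsc arrays of the 2 diets nearly separated, with CR lower (log2 change -0.59, SE 0.16, limma adjusted p = 0.0267). The Ctsc call was lost without any one of 5 arrays (old CR replicates 2, 3 and 5, old resveratrol replicates 2 and 4), with an adjusted p of up to 0.0838. Ctsk signals were 202, 223, 228, 231 and 245 in the young controls and 161, 178, 199, 235 and 249 in the old controls. Under CR Ctsk signals were 182, 244, 246, 271 and 275, and under resveratrol 141, 153, 186, 193 and 209.9. Ctsk was higher under CR in 4 of 5 arrays than in all resveratrol arrays (log2 change 0.46, SE 0.15, limma adjusted p = 0.0491). That call was lost without any one of 8 of the 10 arrays (all but old CR replicate 3 and old resveratrol replicate 1), with an adjusted p of up to 0.112.

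The changes were then compared between tissues in 1 model of all 60 arrays with 13281 genes. With age, 6 of 43 members differed between heart and muscle (6.31% of all genes), 5 between heart and neocortex (3.92%) and 0 by limma between muscle and neocortex (0.376%). Between muscle and neocortex, 6 members had an unadjusted p under 0.05, beside 10.1% of all genes, and no other tool was run on this difference. The heart rise of Bnip3 exceeded the muscle change by 1.06 (SE 0.15, limma adjusted p = 7.09e-06) and the neocortex change by 1.05 (SE 0.15, limma adjusted p = 1.23e-05). The count between muscle and neocortex reached 5 without muscle young control replicate 4, and that between heart and muscle was 3 without heart young control replicate 1. Ctsz went down with age in heart and up in neocortex, the difference being -1.02 (SE 0.24, limma adjusted p = 0.00957).

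Under CR, 15 members differed between heart and muscle (23.2%), 14 between muscle and neocortex (19.8%) and 3 between heart and neocortex (9.19%). Under resveratrol the counts were 17 (19.0%), 11 (12.3%) and 4 (5.83%). Bnip3 fell in the heart and rose in the neocortex on both diets. In the neocortex its means were 5128 ± 449 (SD) in old controls, 6756 ± 389.7 in the CR arrays and 6067 ± 274 in the resveratrol arrays, and the heart minus neocortex difference was -0.79 (SE 0.15, limma adjusted p = 0.000322) for CR and -0.74 (SE 0.15, limma adjusted p = 0.00124) for resveratrol. Gabarap, with a called rise in muscle under resveratrol and a called fall in the heart that was lost without any one of 7 of 10 arrays (all but old control replicate 3 and old resveratrol replicates 1 and 5), differed by -1.09 (SE 0.22, limma adjusted p = 0.000178) between them. Without heart old resveratrol replicate 5 the heart and neocortex count for resveratrol was 2, without neocortex old control replicate 4 the muscle and neocortex count for CR was 9, and without muscle old CR replicate 2 the heart and neocortex count for CR was 5.

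Levels in the young controls also differed between tissues for most members, as for most genes. Of 43 members 20 were higher and 8 lower in heart than in muscle (31.5% and 23.3% of all genes), 22 higher and 10 lower in heart than in neocortex (35.9% and 35.0%), and 16 higher and 18 lower in muscle than in neocortex (36.2% and 37.1%). Of 10 cathepsins and other proteases, 8 were higher in heart than in muscle and 0 lower. Ctsc signals averaged 3465 ± 861 (SD) in young hearts, 3266 ± 361 in muscle and 407 ± 80.1 in neocortex. Lamp2 averaged 9292 ± 739, 3799.7 ± 628 and 1431 ± 455, in the same order. Tfeb was 493 ± 123 in heart, 1141 ± 329 in muscle and 152 ± 54.7 in neocortex, a muscle minus neocortex difference of 2.94 on the log2 scale (limma adjusted p = 7.45e-14). Gabarapl1, an ATG8 protein, was 5.58-fold higher and Ctss 4.29-fold higher in neocortex than in muscle (log2 differences -2.48 and -2.10 for muscle minus neocortex, limma adjusted p = 1.25e-22 and 2.29e-16).

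**Figure D5:**
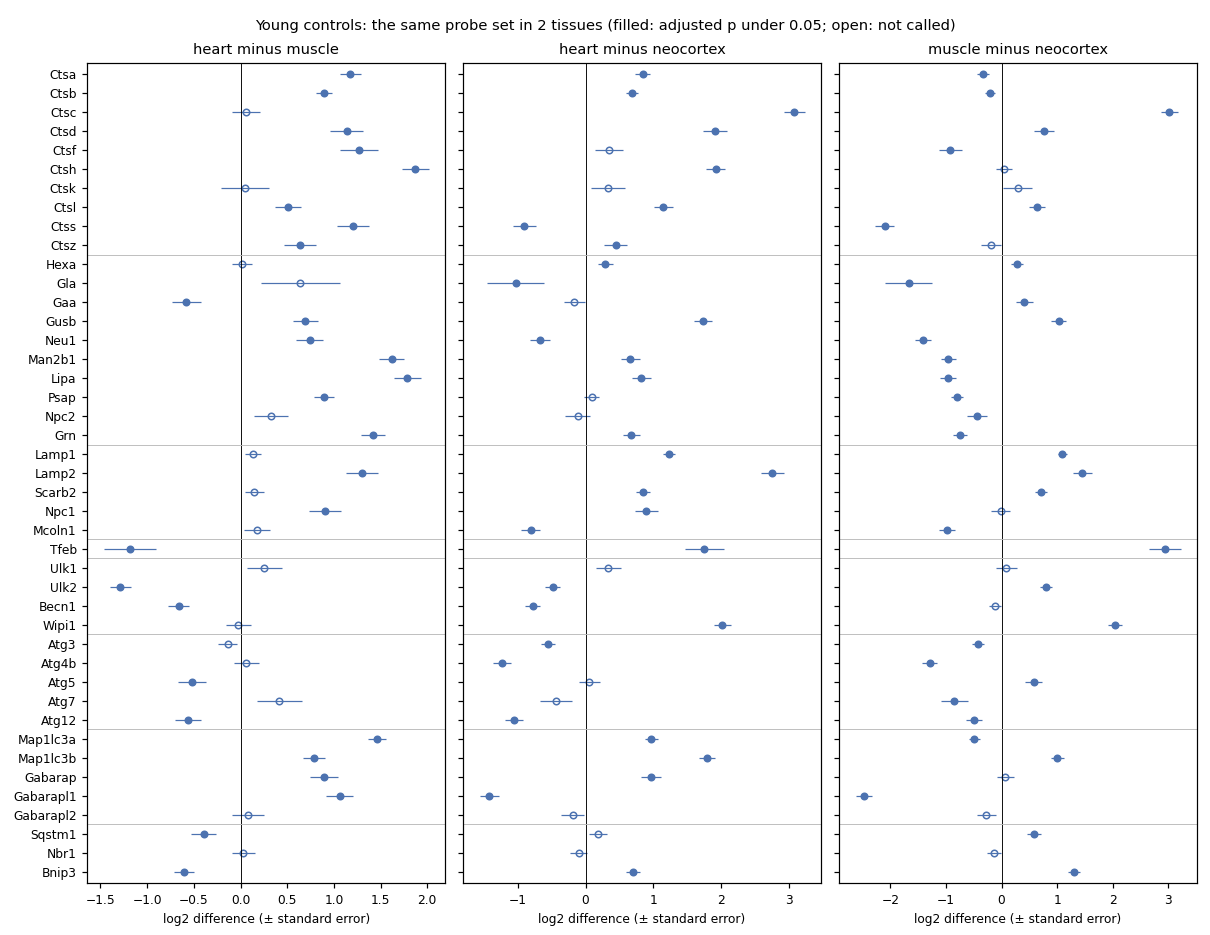
Log2 difference between young control tissues for each member (vertical axis, grouped by role), with standard errors, n = 5 arrays per tissue. Filled points are called. Ctsc lies at 3.08 for heart minus neocortex, and Gabarapl1 at -2.48 for muscle minus neocortex.

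Other genes of the same pathways, 108 listed with 98 or 99 tested per tissue, showed mixed directions as well. The proton pump of the lysosome (V-ATPase, 17 tested) had more rises than falls in muscle, where 9 rose and 2 fell under CR and 6 rose and 1 fell under resveratrol, beside 17.5% and 13.6% of all genes under CR and 9.42% and 9.26% under resveratrol. Its median log2 change there was 0.49 and 0.26, beside 0.10 and 0.07 over all genes. In the same tissue 2 of 37 other autophagy genes rose and 9 fell under CR. In the heart 1 of 37 other autophagy genes rose and 11 fell under CR, and 2 rose and 10 fell under resveratrol, with medians of -0.15 and -0.16. Of 39 other lysosomal enzymes and membrane proteins there, 7 rose and 1 fell under CR and 6 rose and 0 fell under resveratrol, with medians of 0.13 and 0.13. Of all heart genes 7.94% rose and 14.1% fell under CR, and 7.08% and 10.5% under resveratrol. Calcoco1, an autophagy receptor, fell in the heart under resveratrol (1014 ± 82.2 against 2291 ± 164, a log2 change of -1.18 (limma adjusted p = 3.86e-08), means ± SD). Its CR arrays, at 1273 to 1534, were also all below the old controls, at 2084 to 2543. In the heart under CR, Atg4d, a protease that trims ATG8 proteins, was at 766 ± 174 against 1905 ± 151, a log2 change of -1.34 (limma adjusted p = 5.10e-06), and Zkscan3, a repressor of autophagy genes, at 521 ± 87.5 against 1229.5 ± 141, a log2 change of -1.25 (limma adjusted p = 1.32e-06). Resveratrol hearts were also all below the old controls for both genes. Atg4d was at 727 to 1204 against 1716 to 2094, and Zkscan3 at 589 to 966 against 1085 to 1425. With age in the heart, 11 of 99 of these genes rose and 4 fell, beside 7.05% and 3.79% of all genes. Means of old controls are given against those of young controls. Ctns, the lysosomal cystine exporter, was at 129 ± 78.7 against 246 ± 45.6, a log2 change of -1.21 (limma adjusted p = 0.0413). That call was lost without any one of 8 of 10 arrays (all but old control replicates 2 and 3), with an adjusted p of up to 0.121. Trp53inp1, which binds ATG8 proteins, was at 530.3 ± 128 against 1639.9 ± 1774, a log2 change of -1.20 (limma adjusted p = 0.0204). Its 5 young control signals were 703, 783, 850.1, 1057 and 4805, the last in replicate 1. Without that array the log2 change was -0.70, and the call was lost without old control replicate 2 or 4 (adjusted p up to 0.0562).

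Of 6 regulators of these genes, 4 rose in muscle under CR and 3 under resveratrol, with 0 falling, beside the shares of all genes given above. In the heart 2 rose and 2 fell under CR, and 1 rose and 4 fell under resveratrol (median -0.49). In muscle under CR, Foxo1 was at 2588 ± 758 against 866 ± 192 in old controls, a log2 change of 1.54 (limma adjusted p = 5.36e-05). Its resveratrol arrays, at 918 to 1769, overlapped the old controls, at 619 to 1064. In muscle under resveratrol, Mitf, a relative of Tfeb, was at 2451 ± 101 against 1419 ± 317, a log2 change of 0.82 (limma adjusted p = 0.000585). Its CR arrays, at 1910 to 2521, were also all above the old controls, at 1077 to 1898. With age 1 of 99 other pathway genes rose in muscle, beside 0.257% of all genes. This was Wdr45b (1726 ± 171 against 1149 ± 174, a log2 change of 0.59 (limma adjusted p = 0.0355)), a call lost without any one of 7 of 10 arrays (all but young control replicates 4 and 5 and old control replicate 4). In the neocortex 4 of 98 rose with age, all of them lysosomal, beside 1.08% of all genes. Among them were Cd68, a lysosomal membrane protein that is also on the macrophage list (406 ± 71.5 against 256 ± 14.8, a log2 change of 0.65 (limma adjusted p = 0.00619)), and Laptm5 (479 ± 45.5 against 322 ± 50.9, a log2 change of 0.58 (limma adjusted p = 0.0469)). The Laptm5 call was lost without any one of 8 of 10 arrays (all but young control replicates 1 and 3), with an adjusted p of up to 0.143. Under CR 19 rose and 26 fell there, beside 13.1% and 17.5% of all genes. Under resveratrol 15 rose and 18 fell there, beside 12.3% and 13.9% of all genes. Atp6v0a1, a V-ATPase subunit, fell on both diets in the neocortex, by 0.99 on the log2 scale under CR (limma adjusted p = 5.27e-07) and by 1.02 under resveratrol (limma adjusted p = 4.24e-07). Atg9a, the membrane carrier of early autophagosomes, was at 921 ± 62.4 against 1834 ± 209, a log2 change of -0.99 (limma adjusted p = 7.08e-08) under CR. Its resveratrol arrays, at 943 to 1119, were also all below the old controls, at 1599 to 2058.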

How the data were processed

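RNA of 60 tissue samples was hybridised to 60 Affymetrix Mouse Genome 430 2.0 arrays, 5 per group and tissue, which the labels call biological replicates. The deposited values are linear signal intensities per probe set that the authors made in GCOS (version 1.2 in the submitters' processing notes), scaled to a trimmed mean of 500, and 0 per-sample columns were left unused. Scaling fixes each array's mean, so a shift of all genes cannot be seen, and the precision is limited by the number of arrays. Signals were floored at 1 and put on the log2 scale. Of 45101 probe sets, 34945 carried 1 gene symbol in the platform annotation, 932 several and 9160 none, and only the first kind was used, with a gene represented by its probe set of highest mean log2 signal over all arrays. Probe sets with a tissue mean under the 40th percentile (signals of 60.4 in heart, 69.3 in muscle and 57.3 in neocortex) were left out.

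Each tissue was fitted with limma 3.58.1 (R 4.3.3) over its 4 groups with an eBayes trend, two-sided, with Benjamini-Hochberg adjustment over all genes and a threshold of 0.05. Tissue differences came from 1 fit of all 60 arrays. It treated tissues as taken from different mice, because the labels do not say which arrays share a mouse. The scripts were tested on simulated data. Tables and plots used Python 3.11.15, pandas 2.3.3 and matplotlib 3.10.9. Promoters came from RefSeq. Any member could be named, and values in every array are given for the up to 4 members per tissue and comparison with the largest called changes. Members and lists were chosen with earlier results of these data known. Alternatives were quantile normalization, an offset, other filters, other ways to join probe sets, only the groups compared, eBayes without trend, the methods' t-test, a replicate block and each array left out in turn (for other pathway genes, added after seeing the data).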

Additional observations from a re-analysis of the deposited data

Results flagged for a closer look

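In 112 groups of 5 arrays checked for 1 value far from the others, 7 stood out, and chance alone flags about 1 in 20 groups. In muscle under resveratrol, 1 array had an Atg5 signal of 618 and 1 had a Grn signal of 5232, and in muscle under CR the lowest Ulk2 signal was 957. In the heart, the highest Ctsa signal under resveratrol was 3699 and the highest Map1lc3a signal in old controls was 40508. In the neocortex, the highest Atg5 signal in old controls was 765 and the highest Ctsz signal under CR was 2666.

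The other flagged results are differences between tissues in the same comparison, each tested as an interaction by limma in the fit of all 60 arrays. They are log2 differences, with the limma adjusted p in parentheses. For age, Bnip3 differed by 1.06 (limma adjusted p = 7.09e-06) in heart minus muscle and by 1.05 (1.23e-05) in heart minus neocortex. Sqstm1 differed by 0.69 (0.0173) and 0.80 (0.00772) in the same order, Grn by 0.56 (0.0440) in heart minus muscle, and Ctsz by -1.02 (0.00957) in heart minus neocortex.

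For CR, Map1lc3a was at -0.89 (limma adjusted p = 2.52e-06) in heart minus muscle and -0.51 (0.0113) in heart minus neocortex, and Npc1 at 0.83 (0.00765) and 0.96 (0.00572). Heart minus muscle was 0.82 (0.00303) for Atg5, -1.01 (2.01e-05) for Grn and 1.23 (4.60e-08) for Ulk2. Muscle minus neocortex was -0.84 (0.00301) for Atg5, 0.82 (0.000529) for Grn, -1.03 (3.11e-06) for Ulk2, -0.87 (0.000453) for Sqstm1 and 0.53 (0.0336) for Wipi1.

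For resveratrol, heart minus muscle was -1.31 (limma adjusted p = 0.0149) for Tfeb, -0.85 (7.38e-06) for Map1lc3a, -1.15 (2.65e-06) for Grn, 1.22 (2.44e-05) for Atg5 and -1.09 (0.000178) for Gabarap. Muscle minus neocortex was 1.03 (4.23e-05) for Grn, -1.18 (7.75e-05) for Atg5, 0.91 (0.00276) for Gabarap and 0.77 (0.00425) for Man2b1. Heart minus neocortex was -0.60 (0.0407) for Sqstm1.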

How the results depend on the processing

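Of 108 called changes, 40 kept their call in every alternative checked other than leaving out an array, and 35 of these kept it there too. The methods' t-test at p of 0.01 or less and every probe set on its own were not part of this check. With 5 arrays per group and scaled signals without counts, small changes of dim probe sets are the least certain, and scan dates were not used here. Counts of called members moved by over 1.5 times in the following cases. The methods' t-test after Benjamini-Hochberg adjustment called 6 members for heart age, 1 for heart CR minus resveratrol, 9 for muscle CR and 4 for neocortex CR minus resveratrol. At p of 0.01 or less it called 6 for heart CR minus resveratrol, 1 for muscle age, 9 for muscle CR, 1 for muscle CR minus resveratrol and 5 for neocortex CR minus resveratrol. Without the eBayes trend 11 were called for heart resveratrol. With every probe set on its own the counts were 19 for heart age, 24 for heart CR, 16 for muscle resveratrol and 20 for neocortex resveratrol. With only the groups compared they were 14 for muscle resveratrol and 6 for neocortex CR minus resveratrol. Averaging the probe sets of each gene, they were 7 for muscle CR, 4 for muscle resveratrol and 4 for neocortex CR minus resveratrol. Among the members whose arrays are listed, the methods' t-test after adjustment ended the calls of Ctsa, Npc1 (CR minus resveratrol), Ctsk and Tfeb (resveratrol) in heart, of Gabarap in muscle, and of Npc2 (age), Ctsc, Ctsk and Ctss (CR minus resveratrol) in neocortex. Averaging probe sets ended those of Sqstm1 in heart and muscle, Ctsa (CR minus resveratrol) in heart and Atg5, Ctsc, Ctsf, Ctsk, Gla, Man2b1 and Npc2 in neocortex. The setting without 2 muscle arrays that stood apart was chosen after seeing the data and called 16 for resveratrol.

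Signs turned for 12 called changes, all where probe sets were averaged, and the cause was not tested. The values were 0.023 for Ctsc and 0.43 for Neu1 (heart age), 0.012 for Ulk1 and 0.28 for Sqstm1 (heart CR), 0.20 for Man2b1 and 0.022 for Ulk1 (heart resveratrol), 0.10 for Ctsa (heart CR minus resveratrol), 0.14 for Ctsb, -0.20 for Lamp2 and 0.14 for Atg3 (muscle CR), -0.031 for Grn (neocortex CR) and 0.45 for Ctsf (neocortex resveratrol).

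Leaving out 1 array at a time, the count ran from 10 (without old resveratrol replicate 4) to 17 for heart resveratrol, from 0 to 1 (without young control replicate 4) for muscle age and from 4 (without old CR replicate 2 or old resveratrol replicate 4) to 11 for neocortex CR minus resveratrol. Differences between tissues ran from 3 (without heart young control replicate 1) to 9 (without muscle young control replicate 4) for age in heart and muscle, from 0 to 5 (without muscle young control replicate 4) for age in muscle and neocortex, from 3 to 5 (without muscle old CR replicate 2) for CR in heart and neocortex, from 9 (without neocortex old control replicate 4) to 15 for CR in muscle and neocortex, and from 2 (without heart old resveratrol replicate 5) to 5 for resveratrol in heart and neocortex.

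Same replicate numbers were checked for pairing. Between groups of a tissue, deviations of same-numbered arrays had a mean correlation of 0.0050 for heart, 0.0042 for muscle and 0.013 for neocortex. They ran from -0.040 to 0.066, from -0.20 to 0.15 and from -0.16 to 0.17. Across tissues, within a group, the mean was 0.0031 for heart and muscle, 0.0018 for heart and neocortex and -0.013 for muscle and neocortex. These values cannot show whether tissues came from the same mice. With the replicate block the counts for age, CR, resveratrol and CR minus resveratrol were 11, 16, 18 and 3 in heart, 0, 14, 8 and 0 in muscle and 4, 17, 12 and 10 in neocortex, and the block over tissues left the tissue counts at 6 for age, 15 for CR and 17 for resveratrol in heart and muscle.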
